A study of Mus musculus with 2 samples.

Results

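The genes followed here carry the first steps of the DNA damage response: the 3 subunits of replication protein A (*Rpa1*, *Rpa2* and *Rpa3*), the apical kinases *Atr* and *Atm* with the ATR partner *Atrip*, the checkpoint kinases *Chek1* and *Chek2*, and the histone variant *H2afx*. They were chosen by gene symbol, and all 9 had an entry among the 39695 gene entries of the series. The RNA came from whole testes of mice at postnatal day 9 (P9), with 1 library from control males, which had 1 floxed and 1 deleted allele of *Bcas2* (Bcas2F/-) and no Cre, and 1 library from Bcas2F/-;Vasa-Cre males, in which the *Vasa* promoter drives Cre recombinase in germ cells only. All males therefore lacked 1 copy of *Bcas2* from every cell, and the strain was labelled C57BL/6, whereas the study describes a mixed background. How many mice contributed to each library is not given in the sources used here, and 1 library per genotype allows no test of the genotype.

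Single-stranded DNA that is exposed at stalled replication forks or at resected breaks is covered by RPA, a heterotrimer. ATRIP binds to the coated DNA and brings the kinase ATR, which activates CHK1, the product of *Chek1*. ATM responds to double-strand breaks and activates CHK2, the product of *Chek2*. Both apical kinases phosphorylate H2AX, and the phosphorylated form, γH2AX, marks breaks, including the programmed breaks of meiosis. BCAS2 is a subunit of the Prp19 splicing complex that also binds RPA, so the question addressed here is whether the transcripts of this signalling pathway differed in level when germ cells lost *Bcas2*.

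Levels are given as RPKM, the reads on a gene per kilobase of its length and per 1000000 counted reads. Library sizes of 19918750 counted reads in control and 19331687 in Bcas2F/-;Vasa-Cre testes were inferred from the RPKM values, as described below. The study reports larger numbers of mapped reads, and whether the inferred sizes count reads or read pairs is not stated. Reads given for single genes were likewise recovered from the values. The targeted gene, *Bcas2*, stood at 39.5 RPKM in control and at 25.7 RPKM in Bcas2F/-;Vasa-Cre testes, with a log2 ratio of −0.60. Since whole testes hold germ and somatic cells, fewer cells of a type and less RNA per cell cannot be told apart in these values. Throughout, the log2 ratio is that of RPKM + 1 in Bcas2F/-;Vasa-Cre over control testes, and only genes whose mean RPKM reached 1 were considered, which included all 9. Positions are on GRCm38, from GENCODE M21. Intervals cover counting error only and not the spread between mice.

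None of the 9 genes differed by more than 1.5-fold between the libraries. Of all 14831 genes considered, 3.26% did, 1.69% being lower and 1.57% higher, so 0 of 9 is near the share of the background. The log2 ratios of the 9 genes ran from −0.43 for *Rpa2* to 0.11 for *Rpa3*, with a median of −0.17 against 0.02 over all genes. All of them lay inside the middle 95% of all genes, which reached from −0.50 to 0.47. Below this threshold, 7 of the 9 genes (77.8%) were lower in Bcas2F/-;Vasa-Cre testes, compared with 46.3% of all genes. Markers of S phase and of germ cells, described after the pathway genes, had list medians of −0.34 to −0.47. Medians were also below 0 for neutrophil (−2.11), red cell (−0.26), macrophage (−0.16), endothelial (−0.10) and peritubular myoid (−0.05) markers. Those of Sertoli (0.19) and Leydig cell (0.20) markers were above 0. What any of these cell types contributes to the values of the 9 genes was not tested.

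**Figure D1:**
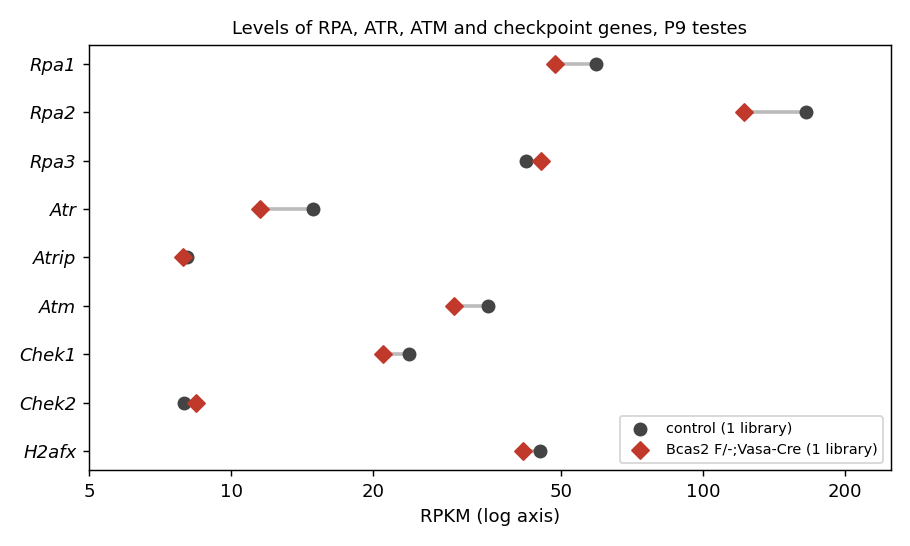
RPKM (log axis) of each of the 9 genes in the control library (dark grey circles) and the Bcas2F/-;Vasa-Cre library (red diamonds), 1 library each and without error bars, joined by a grey line. *Rpa2* was the highest of the 9 in both libraries, and *Rpa3* and *Chek2* were the only ones with the red point to the right of the grey one.

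RPA is built from 1 copy of each subunit, and the transcripts of its subunits did not differ alike between the libraries. *Rpa2*, which encodes the middle subunit that ATR and related kinases phosphorylate, spans bases 132768332 to 132778752 of chromosome 4 (plus strand). Its RPKM was 166 in control and 122 in Bcas2F/-;Vasa-Cre testes, from 2616 and 1876 reads. It was thus 26.1% lower, a log2 ratio of −0.43, and this was the largest difference among the 9 genes. Without the pseudocount the log2 RPKM ratio was −0.44, with a 95% Clopper-Pearson interval from −0.52 to −0.35. Of all genes considered, 3.58% were as low or lower. Among the 2661 genes whose mean RPKM was 50 or more, 34 (1.28%) had a log2 ratio as low as that of *Rpa2*.

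*Rpa1*, the large subunit with the main DNA-binding domains, spans bases 75298166 to 75348324 of chromosome 11 (minus strand). Its RPKM was 59.4 in control and 48.6 in Bcas2F/-;Vasa-Cre testes, from 2616 and 2079 recovered reads. The log2 ratio was −0.28, and 8.13% of all genes were as low or lower. The interval of its log2 RPKM ratio was −0.37 to −0.21. *Rpa3*, the small subunit, spans bases 8255936 to 8259173 of chromosome 6 (minus strand) and went the other way, from 42.1 to 45.4 RPKM on 567 and 593 reads. Its log2 ratio was 0.11, and the interval of −0.06 to 0.28 holds 0.

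RPKM is scaled to a gene length, so a comparison of the subunits within a library depends on the lengths used. These were 2212 bases for *Rpa1*, 793 for *Rpa2* and 676 for *Rpa3*, the rounded means over their annotated transcripts. The lengths of the transcripts present in these testes were not measured. The difference between the libraries does not depend on the length. Per length, *Rpa2* was 2.79 times as abundant as *Rpa1* in control and 2.52 times in Bcas2F/-;Vasa-Cre testes. *Rpa3* stood at 0.709 of *Rpa1* in control and at 0.933 in Bcas2F/-;Vasa-Cre testes, so the 2 RPKM values were closer in the latter library. The log2 RPKM ratio of *Rpa3* exceeded that of *Rpa1* by 0.40 (95% exact conditional interval 0.21 to 0.585) and that of *Rpa2* by 0.55 (0.35 to 0.73). *Rpa2* and *Rpa1* differed less, by −0.15, with an interval from −0.27 to −0.03. These intervals compare reads of 2 libraries and are among 9 gene pairs examined.

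The promoters of the RPA subunits are shown because these genes encode a single complex but differed unequally between the libraries. The RefSeq windows on GRCm38.p6, read 5′ to 3′ on the strand of the gene, run from 250 to 36 bases before the RefSeq start, which for *Rpa1* lies upstream of the GENCODE span given above. Capitals mark CCAAT, the core of the CCAAT box bound by NF-Y, or its reverse complement ATTGG.
Rpa1, chr11:75348419-75348633, minus strand: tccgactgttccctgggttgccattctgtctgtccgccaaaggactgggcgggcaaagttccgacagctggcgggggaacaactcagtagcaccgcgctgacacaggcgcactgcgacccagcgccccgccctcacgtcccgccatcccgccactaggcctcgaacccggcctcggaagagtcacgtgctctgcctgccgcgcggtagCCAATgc
Rpa2, chr4:132768110-132768324, plus strand: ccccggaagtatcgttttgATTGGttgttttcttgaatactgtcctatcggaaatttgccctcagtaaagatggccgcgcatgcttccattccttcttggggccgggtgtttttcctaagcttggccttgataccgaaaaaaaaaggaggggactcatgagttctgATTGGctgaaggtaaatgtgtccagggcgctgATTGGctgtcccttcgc
Rpa3, chr6:8259177-8259391, minus strand: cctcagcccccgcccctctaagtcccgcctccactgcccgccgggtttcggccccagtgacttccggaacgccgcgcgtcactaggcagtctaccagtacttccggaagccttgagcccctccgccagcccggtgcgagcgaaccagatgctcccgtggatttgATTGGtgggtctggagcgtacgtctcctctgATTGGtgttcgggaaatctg
*Rpa2* and *Rpa3* had alike arrangements near the start, with ATTGG beginning 84 and 52 bases before it in *Rpa2* and 86 and 55 bases before it in *Rpa3*. *Rpa2* had a further match 231 bases before the start, and *Rpa1* had 1 match on the other strand, 42 bases before its RefSeq start.

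Windows were available for 8 of the 9 genes, all but *H2afx*. Over the whole 250 bases and both strands, CCAAT was found in 6 of these 8 windows and in 33.8% of all 32851 windows. The 6 were those of *Rpa1*, *Rpa2*, *Rpa3*, *Atm*, *Atrip* and *Chek2*. GGGCGG, the core of a GC box, was found in 4 of 8 windows and in 32.7% of all. TTTNNCGC, a pattern that includes the sites of E2F factors, was found in 1 of 8, that of *Chek2*, and in 4.28% of all. A match is a description of these letters and not evidence of binding, and its relation to the log2 ratios was not tested.

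*Atr* encodes the kinase that answers to RPA-coated DNA and spans bases 95857597 to 95951781 of chromosome 9 (plus strand). Its RPKM was 14.9 in control and 11.5 in Bcas2F/-;Vasa-Cre testes, from 2399 and 1798 reads. It was 22.8% lower, with a log2 ratio of −0.35 and an interval of the log2 RPKM ratio from −0.46 to −0.28. As low or lower were 5.73% of all genes considered and 4.51% of the 5032 genes within 2-fold of its mean RPKM. Its partner *Atrip*, spanning bases 109057933 to 109074124 of the same chromosome (minus strand), was almost level, with RPKM of 8.06 and 7.91 from 356 and 339 reads. The log2 ratio of *Atrip* was −0.02, and with RPKM rescaled to an equal sum per library it was 0.00, so no direction can be given. Subtracting the log2 RPKM ratio of *Atrip* from that of *Atr* gave −0.35, with an interval from −0.58 to −0.11. *Atr* was 1.85 times as abundant per length as *Atrip* in control and 1.46 times in Bcas2F/-;Vasa-Cre testes. These 2 figures depend on the lengths found, 8074 bases for *Atr* and 2218 for *Atrip*. The mean M21 transcript lengths were 3195 and 2097 bases. The *Atrip* gene spans *Trex1*, which encodes an exonuclease and was listed at 0 in both libraries, so reads in the shared part are uncertain. *Atr* overlaps 3 further entries, *1700065D16Rik*, *Gm16794* and *Gm24004*, and is uncertain in the shared parts for the same reason.

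*Atm* spans bases 53439149 to 53536740 of chromosome 9 (minus strand). Its RPKM was 35.0 in control and 29.7 in Bcas2F/-;Vasa-Cre testes, 15.1% lower, with a log2 ratio of −0.23. The reads behind these values were 3562 and 2934 for a gene length of 5110 bases, which gave an interval of the log2 RPKM ratio from −0.31 to −0.17. A length of 2555 bases would also give whole reads, 1781 and 1467, and a wider interval from −0.34 to −0.14. Longer lengths gave whole reads as well, such as 12775 bases with 8905 and 7335 reads, so the length behind the *Atm* values is not settled. By RPKM, *Atm* was the higher of the apical kinases, with *Atr* at 0.426 of it in control and 0.388 in Bcas2F/-;Vasa-Cre testes. The length found for *Atr* was 8074 bases. Which kinase had more transcripts depends on these lengths and cannot be told.

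**Figure D2:**
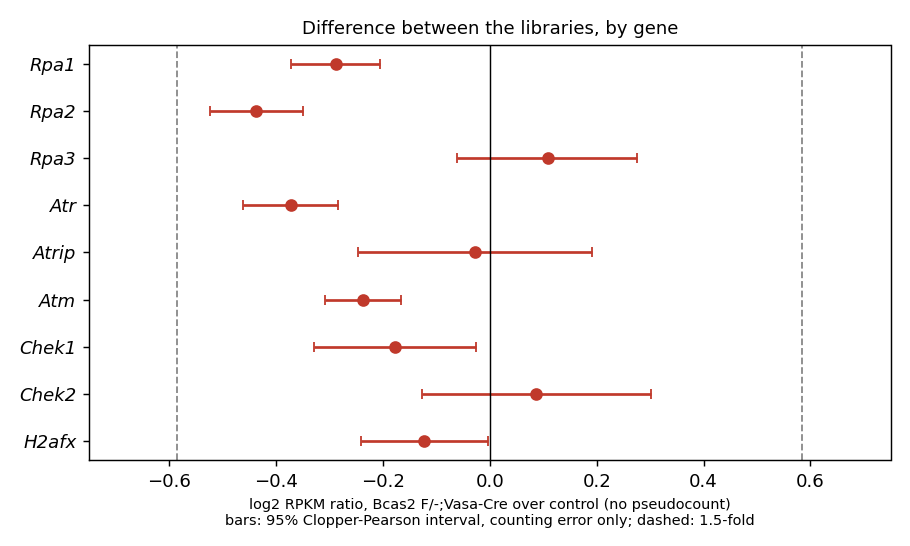
Log2 RPKM ratio of each gene, Bcas2F/-;Vasa-Cre over control testes, without pseudocount, with 95% Clopper-Pearson intervals that cover counting error only. The dashed lines mark 1.5-fold. No interval reaches them, and those of *Rpa3*, *Atrip* and *Chek2* hold 0.

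The checkpoint kinases differed in RPKM from each other more than between libraries. *Chek1*, the kinase activated by ATR and needed in unperturbed S phase, spans bases 36708482 to 36727065 of chromosome 9 (minus strand). Its RPKM was 23.8 in control and 21.0 in Bcas2F/-;Vasa-Cre testes on 775 and 665 reads. This gave −0.17 as log2 ratio, and the interval of the log2 RPKM ratio ran from −0.33 to −0.03. *Chek2*, the kinase activated by ATM, spans bases 110839979 to 110874145 of chromosome 5 (plus strand). Its RPKM was 7.93 in control and 8.43 in Bcas2F/-;Vasa-Cre testes from 355 and 366 reads. The log2 ratio was 0.08, and the interval of −0.13 to 0.30 holds 0. *Chek1* was 2.998 times as abundant per length as *Chek2* in control and 2.496 times in Bcas2F/-;Vasa-Cre testes. These 2 figures depend on the lengths found, 1636 bases for *Chek1* and 2247 for *Chek2*. The mean M21 transcript lengths were 1655 and 1036 bases. The difference between their log2 RPKM ratios was −0.27, with an interval from −0.53 to −0.001, which barely leaves out 0.

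*H2afx*, the gene without introns that encodes H2AX, spans bases 44334694 to 44336077 of chromosome 9 (plus strand). Its RPKM was 45.2 in control and 41.5 in Bcas2F/-;Vasa-Cre testes, from 1222 and 1089 reads. The log2 ratio was −0.12, and 23.8% of all genes were as low or lower. The interval of its log2 RPKM ratio, −0.24 to −0.004, ended close to 0. Among the other gene entries of the series, 22 had at least 90% identity to *H2afx* over 200 bases or more, so some of its reads are uncertain. This is the level of the transcript and says nothing about γH2AX, the phosphorylated protein. The other H2A variants with genes of their own, *H2afz*, *H2afv*, *H2afy*, *H2afy2* and *H2afj*, had a median log2 ratio of −0.21, and all 5 were lower, from −0.29 for *H2afy2* to −0.02 for *H2afz*. None of the 5 passed 1.5-fold, which is near the share of 3.26% over all genes considered.

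In control testes the order of the RPKM values was *Rpa2*, *Rpa1*, *H2afx*, *Rpa3*, *Atm*, *Chek1*, *Atr*, *Atrip* and *Chek2*. This order depends on the gene length behind each value, which the intervals below do not cover. The exact Poisson intervals of *H2afx* (42.7 to 47.8) and *Rpa3* (38.7 to 45.7) overlapped, as did those of *Atrip* (7.24 to 8.94) and *Chek2* (7.13 to 8.80), so these neighbours could not be ordered. *Rpa2* exceeded 96.1% of all genes considered and *Chek2* only 36.6%. In Bcas2F/-;Vasa-Cre testes the intervals of *Rpa1* (46.6 to 50.8) and *Rpa3* (41.8 to 49.2) overlapped too.

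Counting error left 0 outside the interval in 6 of the 9 genes, *Rpa1*, *Rpa2*, *Atr*, *Atm*, *Chek1* and *H2afx*, all lower, and in 0 of 9 towards higher levels. Among all genes with recovered reads the interval lay below 0 in 17.9% and above 0 in 19.9%, which shows how often reads differ beyond counting error in this pair of libraries. Such shares were not matched for read number. Intervals narrow as reads increase, so the shares over all genes are not a like-for-like background for the 9 genes. With RPKM rescaled to the same sum in each library, which adds 0.03 to each log2 RPKM ratio without pseudocount, the intervals of *Chek1* and *H2afx* held 0, and 4 of 9 genes remained, against 14.7% of all genes.

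**Figure D3:**
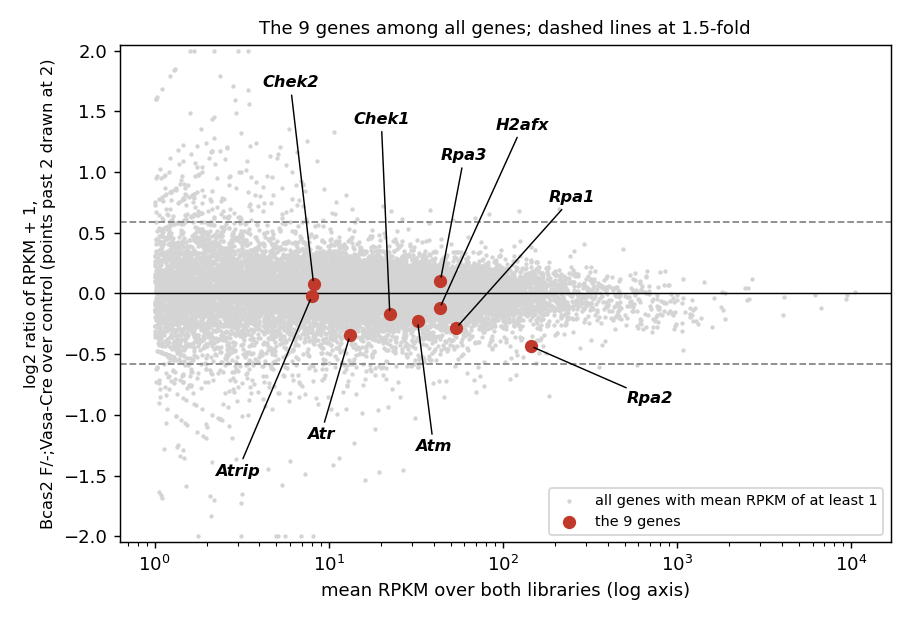
Log2 ratio of RPKM + 1, Bcas2F/-;Vasa-Cre over control testes, against mean RPKM (log axis) for 14831 genes (grey, points past 2 drawn at 2) and the 9 genes (red, named). Dashed lines mark 1.5-fold. All red points lie between the lines, and *Rpa2*, at −0.43, lies below all but 1.42% of the 1476 genes within 2-fold of its mean RPKM.

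The pathway around these genes was examined with 8 lists of 51 further genes, of which 48 passed the expression filter. None of the 48 was past 1.5-fold in either direction, which is near the share of 3.26% over all genes considered. The median log2 ratio was −0.10, and 32 genes (66.7%) were below 0, compared with 46.3% of all genes. *Rad9a*, a subunit of the 9-1-1 clamp, was listed at 0 in both libraries, *Meiob* was below the filter and *Spata22* was not analysed here.

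Genes that load and activate ATR differed little. These were the clamp subunits and their loader, *Topbp1*, *Etaa1* and *Rhno1*. Of 8 genes, 5 were below and 3 above 0, with a median of −0.04. The lowest was *Rhno1*, which binds the 9-1-1 clamp and TOPBP1, at −0.26. The highest was *Hus1*, a clamp subunit, at 0.11.

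The 4 mediators that link the fork to CHK1 were all below 0, with a median of −0.29. *Wdhd1*, a replisome protein that binds DNA polymerase α, went from 39.0 to 26.5 RPKM. Its log2 ratio of −0.54 was near the 1.5-fold threshold of 0.585. *Tipin*, the partner of *Timeless*, was at −0.02. *Timeless* and *Clspn*, which encodes the CHK1 adaptor claspin, lay between.

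On the ATM side, the MRE11-RAD50-NBN complex senses break ends, and the acetyltransferase *Kat5* acts on ATM. The median of these 4 genes was −0.13, from −0.20 for *Rad50* to 0.07 for *Kat5*. The proteins that read γH2AX and the ubiquitin marks beside it were spread to both sides, with 4 genes below and 5 above 0 and a median of 0.03. *Uimc1*, which encodes the ubiquitin reader RAP80, was lowest at −0.36, and *Rnf8*, the ligase that MDC1 recruits, was highest at 0.28. *Rnf8* went from 7.10 to 8.86 RPKM on 302 and 366 reads, with an interval of the log2 RPKM ratio from 0.10 to 0.55.

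DNA-PK, its Ku subunits and the chaperones of this kinase family had a median of −0.03, with *Xrcc5*, a Ku subunit, lowest at −0.21 and the chaperone *Tti1* highest at 0.15. Targets of the checkpoint kinases and the enzymes that oppose them had a median of −0.14, and 6 of 8 were below 0. *Cdc25c*, a phosphatase that promotes entry into mitosis, was lowest at −0.49, from 10.7 to 7.36 RPKM. *Trp53*, which encodes p53, was highest at 0.05.

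Proteins that act on RPA-coated DNA had a median of −0.13, with 5 of 7 genes below 0. *Rad52*, which anneals single strands, was highest at 0.18. In the meiotic list, *Hormad1*, an axis protein needed for ATR at unsynapsed chromosomes, stood at 16.6 RPKM in control and 10.9 RPKM in Bcas2F/-;Vasa-Cre testes, with a log2 ratio of −0.56. Without the pseudocount its log2 RPKM ratio was −0.61, past 1.5-fold. *Hormad2* was at −0.24.

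Among 4 genes of the Prp19 complex, whose ubiquitin ligase also acts on RPA, only *Bcas2* passed 1.5-fold, at −0.60. With RPKM rescaled to an equal sum it no longer did. *Plrg1* was at −0.14, *Prpf19* at 0.003 and *Cdc5l* at 0.01.

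**Figure D4:**
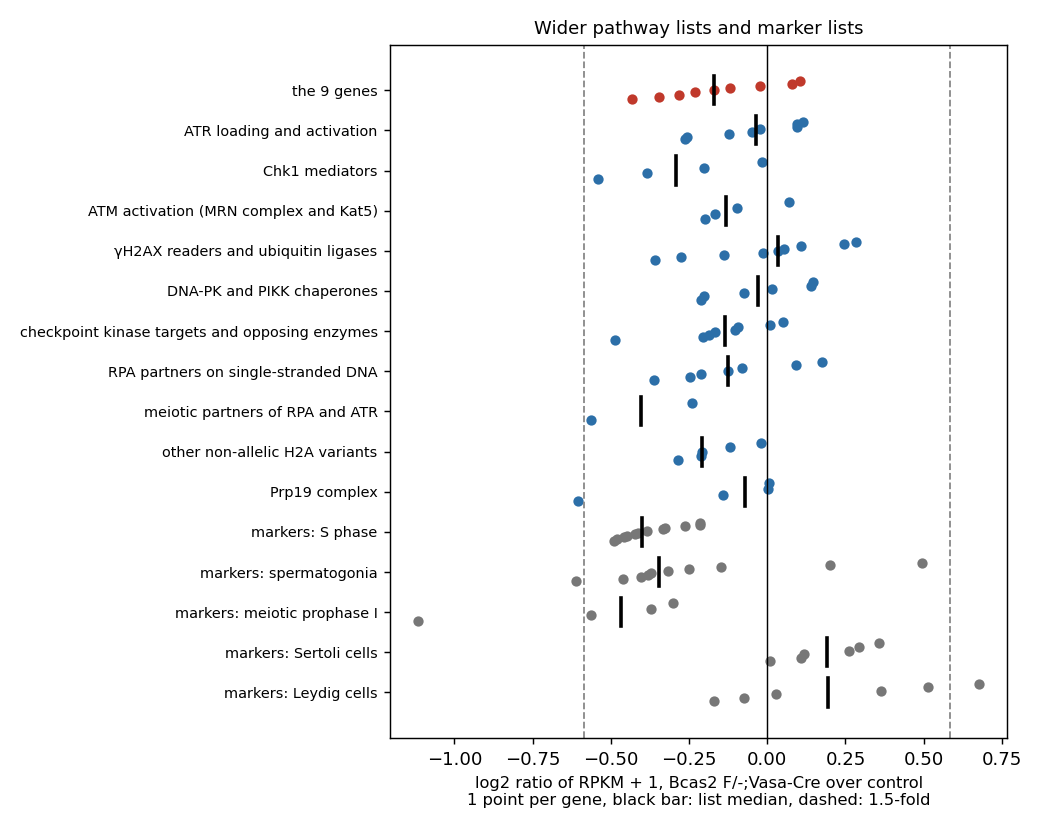
Log2 ratio of RPKM + 1, Bcas2F/-;Vasa-Cre over control testes, with 1 point per gene, for the 9 genes (red), 10 lists of related genes (blue) and 5 marker lists (grey). Black bars are list medians and dashed lines mark 1.5-fold. The 9 genes have a median of −0.17, between those of the S-phase (−0.40) and Sertoli cell (0.19) markers.

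Markers of 10 cell types or states were examined beside the 9 genes. All 12 S-phase markers were lower, from −0.49 for *Mcm7* to −0.21 for *Mcm4*, with a median of −0.40 and a summed RPKM of 699.5 in control and 532.8 in Bcas2F/-;Vasa-Cre testes. Of the spermatogonia markers, 8 of 10 were lower, with a median of −0.34 and a summed RPKM of 773.9 and 605.3. In this list *Stra8* was lowest at −0.61, past 1.5-fold, and *Nanos2* highest at 0.49, or 0.86 without the pseudocount, which is past 1.5-fold. By real-time RT-PCR with replicates at P9, the study reported similar levels in both genotypes for several of these genes, *Stra8*, *Dazl* and *Nanos2* among them. It reported lower levels for the 4 meiotic prophase I genes given next. All 4 meiotic prophase I markers were lower, with a median of −0.47 and a summed RPKM of 84.1 and 54.2, from *Smc1b* at −1.11 to *Sycp3* at −0.30. All markers of both germ cell lists were above 0 in both libraries.

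The Sertoli cell markers were higher in 6 of the 6 that passed the filter, with a median of 0.19 and a summed RPKM of 3106.2 and 3397.7, while *Rhox5* was listed at 0 in both libraries. Leydig cell markers had a median of 0.20, with 4 of 6 higher and *Cyp17a1*, a steroidogenic enzyme, past 1.5-fold at 0.68. Medians were −0.05 for peritubular myoid, −0.10 for endothelial, −0.16 for macrophage and −0.26 for red cell markers. In the red cell list *Hbb-bt* was past 1.5-fold at −1.03. The 4 neutrophil markers were all past 1.5-fold lower, with a median of −2.11 and a summed RPKM of 25.8 and 3.1. The part of these cell types in the values of the 9 genes was not tested.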

How the data were processed

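Total RNA of whole P9 testes was sequenced as paired-end reads from 1 control and 1 Bcas2F/-;Vasa-Cre library. The authors removed adaptor and low-quality sequences, aligned the reads with TopHat2 2.0.9 to mm10 (per the labels), used HTSeq to count reads on each gene and deposited the values as RPKM, which were used unaltered. The annotation release behind the gene lengths is not given in the sources used here. By identifier, 95.0% of the entries had a match in GENCODE M21 (GRCm38). The kit does not mark strand as far as stated, so overlapping genes are uncertain.

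Log2 ratios used RPKM + 1, which understates changes of low genes, and a minimum mean RPKM of 1. Whole reads were recovered by requiring that both values of a gene give whole reads and a whole gene length, within 0.01 bases and nearest, as a ratio, to the mean M21 transcript length, among lengths of 0.2 to 5 times that mean. Library sizes came from genes with 1 transcript (2432 of 3153 in control and 2463 of 3196 in Bcas2F/-;Vasa-Cre testes gave the stated number). Recovered reads summed to 101.2% and 100.9% of these sizes, so some genes are wrong by a whole factor. For *Rpa1*, *Rpa2* and *Rpa3* the length found was that of M21, rounded to whole bases. Multiples of the length and reads are whole as well for every member, and would narrow the intervals. At 3 times its length, that of *Rpa3* would run from 0.01 to 0.21. Intervals are 95% Clopper-Pearson intervals of a gene's share of reads, exact conditional intervals for 2 genes and exact Poisson intervals for levels. They cover counting error only, since reads without molecular identifiers are not independent molecules. The steps were tested on simulated data, but there the intervals were computed from the simulated reads and not from recovered ones. That test therefore does not cover the effect of wrongly recovered reads on the intervals.

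The 9 genes, the lists and the alternatives were chosen with earlier results of these data known. From each pathway list the genes named were the lowest, the highest and any past 1.5-fold, and others were named after their values were seen. A gene that this rule would name is not reported here. Near copies were sought with BLAST+ 2.17.0 (90% identity over at least 200 bases). Computations used pandas 2.3.3, scipy 1.17.1 and numpy 2.4.6 under Python 3.11.15, and plots matplotlib 3.10.9.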

Additional observations from a re-analysis of the deposited data

How the results depend on the processing

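The alternatives tried were smaller pseudocounts (0.1 and 0.01), centring of all genes at a median of 0, scaling of each library to a total RPKM of 1000000, omission of the filter, and a minimum mean RPKM of 5. Under these 6 alternatives, none of the 9 genes passed 1.5-fold and their median ran from −0.19 to −0.15. All 54 values of the single genes stayed within their counting error. The filter settings could not alter these values, since all 9 genes passed each filter, and centring shifts every gene by the same amount. *Atrip* ran from −0.04 to 0.00, and the other 8 genes kept their sign. With RPKM rescaled, 6 rather than 7 of the 9 genes were below 0.

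The number of all genes past 1.5-fold depended on most settings, some of which also change which genes are considered, and the cause was not tested. As reported, 251 of 14831 genes were lower and 233 higher. These counts moved to 457 and 454 with a pseudocount of 0.1, and to 485 and 491 with 0.01. Without a filter they were 468 and 511 of 39695 entries, and with a minimum of 5 they were 104 and 46 of 10663. With RPKM rescaled, 356 were lower and 434 higher, of the 16133 genes that then passed the filter. Centring left both counts within 1.5 times. With either smaller pseudocount, *Hormad1* and *Sycp1* were past 1.5-fold lower and *Nanos2* past 1.5-fold higher, the last also with RPKM rescaled. The median of the neutrophil markers was −3.60 with a pseudocount of 0.01, and that of the Sertoli cell markers was 0.12 without the filter, which adds *Rhox5*, listed at 0.

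No paired analysis was possible because each genotype had 1 library. Depth limits *Atrip*, *Chek2* and *Rpa3*, with 339 to 593 reads per library, most.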

Other observations

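*H2afx* was the only one of the 9 genes with copies of at least 90% identity over 200 bases elsewhere among the gene entries of the series. Copies without an entry there were not counted. There were 22 such entries, of 90.1% to 96.1% identity, mainly replication-dependent H2A genes on chromosomes 3 and 13. Of these, 7 had a mean RPKM of at least 1. The highest was *Hist1h2ap*, a gene of the histone cluster on chromosome 13, with an RPKM of 91.4 in control and 56.5 in Bcas2F/-;Vasa-Cre testes. Reads that match both *H2afx* and such a copy cannot be assigned from these values. Apart from *Trex1*, which lies within *Atrip*, the other 8 genes had no such copy.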
